A study of Mus musculus with 27 samples.

Results

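Chemokines and their receptors were described in hepatic stellate cells (HSCs), mesenchymal cells of the liver sinusoid that store vitamin A, after injury by carbon tetrachloride (CCl4), which is toxic to hepatocytes. The members were the protein-coding mouse genes whose symbols begin with Ccl, Cxcl, Ccr or Cxcr followed by a number, together with Xcl1, Cx3cl1 and Cx3cr1. This gave 54 of the 53379 genes counted, namely 37 ligands and 17 receptors, of which 40 (26 ligands and 14 receptors) had enough reads to be tested. All 27 libraries came from male Balb/c mice without a reported genetic change. Healthy mice, aged 10 to 12 weeks, were not injected (n = 4). Acute groups of the same age received 1 injection. They comprised 3 libraries taken after 24 h, 4 after 72 h and 4 after 7 d. Chronic groups, aged 8 to 10 weeks at the time of injury, received 8 injections over 4 weeks and were collected 24 h, 72 h or 14 d after that course (n = 4 each). Each injection held 0.5 µL of CCl4 per g of body weight in mineral oil. The controls received no oil, so CCl4 and the injection of its vehicle cannot be told apart. After liver perfusion the cells were sorted on ultraviolet fluorescence and lysed without culture, and nothing in the labels ties a library to 1 animal or to several. The p-values therefore measure the spread between these libraries.

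Chemokines are small secreted proteins that direct the migration of leukocytes and, in some cases, of progenitor and stromal cells. They are grouped by the spacing of their N-terminal cysteines into CXC, CC, C and CX3C families, and they act through G protein-coupled receptors that many of them share. In the injured liver stellate cells, Kupffer cells, endothelium and hepatocytes are all known sources, while most of the receptors are best known from leukocytes, and atypical receptors bind chemokines without G protein signalling and remove them. A stellate cell that is activated becomes a collagen-producing myofibroblast.

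The library totals lay between 6314801 and 13052838 counts and formed a lower class of 8 libraries, none above 7580709, and a higher class of 19, none below 10792560. The lower class held all 4 chronic 14 d libraries and replicates 1 and 2 of both chronic 24 h and chronic 72 h. Levels are given as CPM, the counts of a gene scaled to a common library total. Levels of different genes are compared as CPM per kb of annotated exon unless stated. Markers of the labelled cell type were detected in every group, although the sum of the 15 listed was lower in every injured library than in any healthy one. The 15 summed to 25487 to 30385 CPM in healthy, 13507 to 18682 CPM in acute 24 h and 9269.9 to 9943 CPM in chronic 24 h libraries. Lrat, the enzyme that esterifies retinol, averaged between 1036 CPM in chronic 24 h and 1835 CPM in acute 72 h libraries, and Des and Reln averaged at least 296 and 685 CPM in every group. RNA of leukocyte genes was present beside them. The summed level of 10 pan-leukocyte genes was 74 to 249 CPM in healthy, 39.9 to 237 CPM in acute 24 h, 502 to 1025 CPM in acute 7 d and 203 to 873 CPM in chronic 24 h libraries. At chronic 24 h the 2 libraries of lower depth held more (873 and 872 CPM) than the 2 of higher depth (203 and 476 CPM). In bulk RNA, fewer cells of a type and less RNA per cell cannot be told apart.

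Cxcl12 and Cxcl1 led the set. Per kb of exon, Cxcl12, the ligand of CXCR4 and of the scavenger ACKR3, had the highest group median in healthy, acute 7 d, chronic 72 h and chronic 14 d libraries. Cxcl1, a neutrophil attractant, had it at acute 24 h, acute 72 h and chronic 24 h. The medians of Cxcl12 and Cxcl1 were 924 and 147 CPM per kb in healthy, 249.7 and 356 at acute 24 h, 577 and 747 at acute 72 h and 404 and 534 at chronic 24 h. At the last 3 of these times the libraries of the pair overlapped. The ranking depends on exon length, 8176 bases for Cxcl12 and 1875 for Cxcl1 over all annotated transcripts. The transcripts in use were not measured. Without division by exon length, Cxcl12 held 46.4 to 92.7 percent of the summed CPM of the members in each library. By the highest group median per kb of exon, the 8 leading members were Cxcl12 (1234 CPM per kb at chronic 72 h), Cxcl1 (747 at acute 72 h), Ccl2 (465 at acute 72 h), Ccl7 (402 at chronic 24 h), Cxcl14 (166 at acute 24 h), Cxcl10 (133 at chronic 14 d), Ccl6 (98.8 at chronic 24 h) and Cxcl2 (82.4 at chronic 24 h). The summed level of the 17 receptors was 32.9 ± 13.5 CPM in healthy, 17.2 ± 5.14 CPM in acute 24 h, 52 ± 11.4 CPM in acute 72 h and 313 ± 49.2 CPM in acute 7 d libraries. In the chronic groups it was 150.4 ± 57.1 CPM at 24 h, 121 ± 55.2 CPM at 72 h and 146 ± 16 CPM at 14 d. Of the 14 members too low to test, Ccl19, Ccl21b, Ccl26 and Ccl27b had no count in any library, and Ccl1, Ccl20, Ccl21a, Ccl27a, Ccl28, Ccr4, Ccr8, Cxcl15, Cxcl17 and Cxcr1 had between 4 and 91 counts over all 27 libraries.

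**Figure D1:**
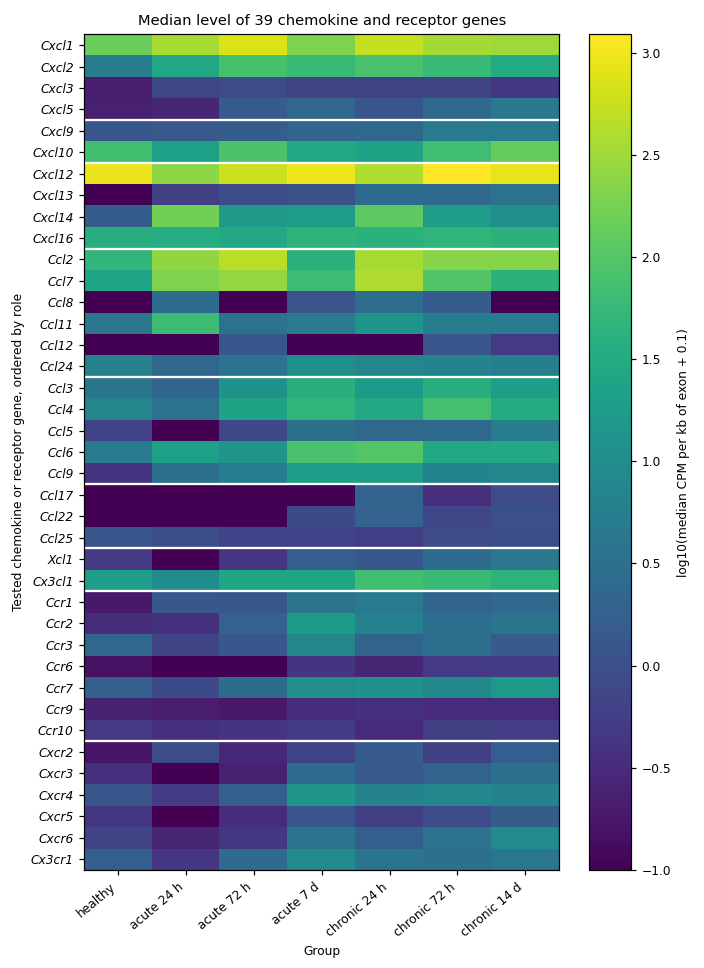
Median level of 39 of the 40 tested chemokine and receptor genes (rows, ordered by role) in the 7 groups (columns), as log10 of the median CPM per kb of exon plus 0.1. Cxcl12 or Cxcl1 was the highest row in every group, and most receptor rows were brighter at acute 7 d than in healthy libraries.

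After 1 injection the set moved in stages. A gene was called when its adjusted p in edgeR was below 0.05 and its change above 2-fold, and a log2 fold change (log2FC) is given ± its SE. Where leaving out a single library ended a call, the libraries are named. The parentheses then give the range of log2FC and the highest adjusted p over all such omissions. At acute 24 h 10 members were higher than in healthy libraries and 10 were lower, that is 25 percent of the 40 tested in either direction, where 9.41 and 12.5 percent of all 18758 tested genes were called. The median log2 fold change was -0.28 over the tested members (-0.21 with bounds) and -0.12 over all genes, where the bounds replace the fitted value of a gene with no count in a group by its fold against 3 counts per library. By acute 72 h 13 members were higher and 0 lower, where 8.23 and 4.33 percent of all genes were called, with a median of 0.50 over the tested members (0.33 with bounds) and 0 over all genes. By acute 7 d 19 were higher and 0 lower (all genes, 9.23 and 5.64 percent), with a median of 2.37 over the tested members (1.98 with bounds) and 0.01 over all genes. Between neighbouring times of the acute course, 12 members were higher and 3 lower at 72 h than at 24 h (all genes, 11.2 and 3.76 percent), and 13 were higher and 3 lower at 7 d than at 72 h (all genes, 5.08 and 2.73 percent). At an unadjusted p below 0.05 1 member was lower at acute 72 h and 1 at acute 7 d, and DESeq2, on the same filtered genes, also called 0 lower at both times. Ccl8, Ccl12, Ccl17 and Ccl22 had no count in healthy libraries and could not be lower at any time. Ccr1, Ccr6, Cxcr2 and Xcl1 had at most 4 counts in a healthy library. The count of lower members at acute 24 h was 6 without healthy replicate 3 or acute 24 h replicate 1, and 5 without healthy replicate 4 or acute 24 h replicate 3. At acute 72 h 1 member was lower without acute 72 h replicate 1, and at acute 7 d 1 was lower without acute 7 d replicate 4.

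After the 8 injections members differed from healthy at all 3 times. At chronic 24 h 26 were higher and 2 lower, where 11.2 and 8.11 percent of all genes were called, with a median log2 fold change of 2.20 over the tested members (2.15 with bounds) and -0.03 over all genes. Without chronic 24 h replicate 1 only 1 was lower. In the 2 chronic 24 h libraries of higher depth, set against healthy libraries of the same class, 17 were higher and 0 lower, and calls were lost for Ccl2, Ccl5, Ccl11, Ccl17, Ccl22, Cxcl3, Cxcl5, Cxcl9, Cxcl10, Cxcl12 and Cxcl13. At chronic 72 h 21 were higher and 0 lower (all genes, 7.88 and 4.2 percent), with a median of 2.13 over the tested members (1.88 with bounds) and 0 over all genes. In the libraries of higher depth 14 were higher at chronic 72 h, with calls lost for Ccl8, Ccl9, Ccl22, Cx3cr1, Cxcl3, Cxcr2 and Xcl1. At chronic 14 d 19 were still higher and 0 lower (all genes, 4.55 and 1.17 percent), with a median of 2.16 over the tested members (1.70 with bounds) and -0.03 over all genes. The 0 lower at chronic 72 h and chronic 14 d was also the count by DESeq2 and at an unadjusted p below 0.05. Neither is separate support, because the same filtered genes were used and members without a healthy count could not be lower. With depth class as a term of the model the chronic 14 d count of higher members was 9, with calls lost that included those of Ccl5, Ccl6, Ccl9, Ccl22, Cx3cr1, Cxcl2, Cxcr3, Cxcr4, Cxcr6 and Xcl1, and without healthy replicate 2 it was 12. Against chronic 24 h, chronic 14 d libraries had 4 members higher and 5 lower (all genes, 6.65 and 6.11 percent), and 2 were higher when replicate 2 or 3 of chronic 24 h, or 1 or 3 of chronic 14 d, was left out. The 24 h groups after 8 and after 1 injection also differed, with 19 members higher and 1 lower at chronic 24 h (all genes, 10.9 and 3.05 percent), of which 8 higher and 1 lower were called in the libraries of higher depth alone. The 6 comparisons with healthy share the same 4 control libraries. Ccr1, Cxcl2, Cxcl14 and Cxcr2 were higher in all 6 of them, Ccl3, Ccl4, Ccl6, Ccl9, Ccr2, Cxcl3 and Cxcl5 in 5, and Ccl12, Ccl24, Ccl25, Ccr6, Ccr9, Ccr10 and Cxcl16 were called in none.

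**Figure D2:**
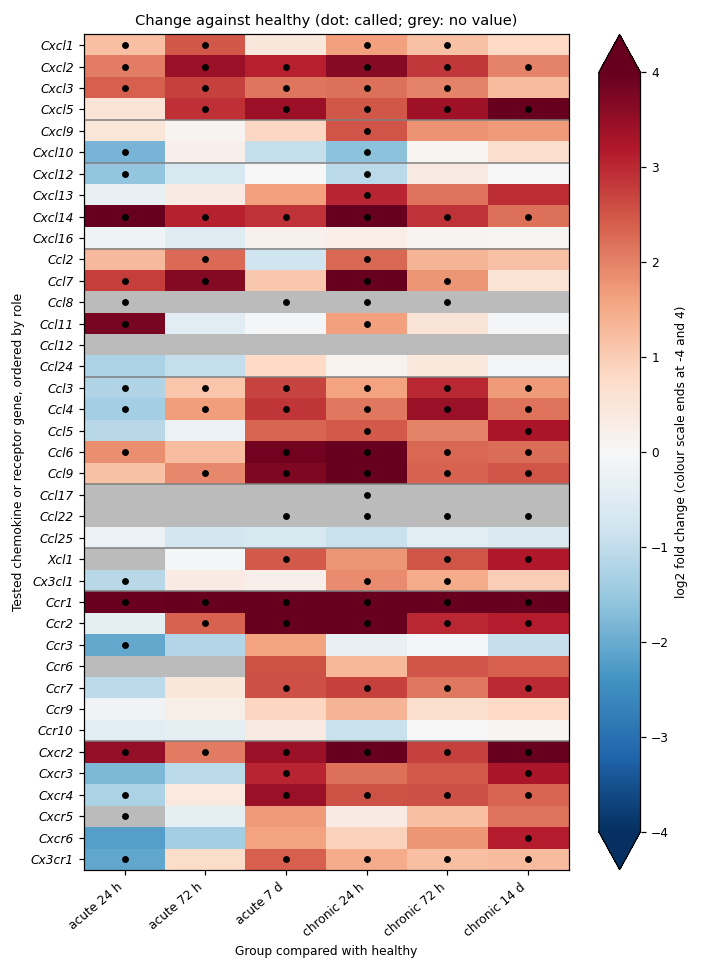
The log2 fold change of 39 of the 40 tested genes (rows, ordered by role) in each injured group (columns) against healthy, with red for higher and blue for lower, dots for calls in edgeR and grey cells where healthy or the injured group had no library with 3 counts. Of the 4 rows of neutrophil-attracting CXC ligands, 3 had dots at acute 24 h, and the receptor rows were mostly red at acute 7 d.

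The CXC chemokines with an ELR motif attract neutrophils through CXCR2. Cxcl1, Cxcl2, Cxcl3 and Cxcl5 lie within 147 kb on chromosome 5 (90759360 to 90905938, GRCm38), together with Cxcl15, which was near 0. In RefSeq (GRCm38.p6) 40 members had a promoter entry, a set that differs from the 40 tested. Of these, 11 (27.5 percent) held a kappaB motif, the binding letters of NF-kappaB, against 9.55 percent of all 27025 genes with an entry. The search covered either strand between 250 bases before and 50 after the start. Among the 11, Ccl1, Ccl20 and Ccl27a were too low to test. Cxcl1, Cxcl2 and Cxcl3 are neighbours with the same match, so the 11 are not independent. The interferon-stimulated response element (ISRE), searched as GAAA and GAAA with 2 bases between them, was in 3 members (7.5 percent, all genes 3.99 percent), and the AP-1 letters TGANTCA were in 8 (20 percent, all genes 8.97 percent). The 250 bases before the starts of Cxcl1, Cxcl2 and Cxcl3 are printed because these neighbours, which were each called higher than healthy at acute 24 h, acute 72 h, chronic 24 h and chronic 72 h, carry the same letters. The kappaB matches are in capitals, where matches of both strands overlap.
Cxcl1 (chr5:90890995-90891244, plus strand): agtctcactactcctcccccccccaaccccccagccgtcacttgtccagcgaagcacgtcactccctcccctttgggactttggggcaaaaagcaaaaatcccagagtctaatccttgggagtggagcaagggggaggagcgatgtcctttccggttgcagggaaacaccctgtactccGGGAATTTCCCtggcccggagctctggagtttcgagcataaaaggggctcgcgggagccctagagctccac
Cxcl2 (chr5:90903649-90903898, plus strand): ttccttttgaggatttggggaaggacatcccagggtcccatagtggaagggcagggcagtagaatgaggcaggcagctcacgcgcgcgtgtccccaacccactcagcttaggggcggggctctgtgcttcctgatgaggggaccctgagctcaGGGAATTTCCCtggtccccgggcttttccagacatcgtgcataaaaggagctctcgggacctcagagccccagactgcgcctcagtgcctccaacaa
Cxcl3 (chr5:90785851-90786100, plus strand): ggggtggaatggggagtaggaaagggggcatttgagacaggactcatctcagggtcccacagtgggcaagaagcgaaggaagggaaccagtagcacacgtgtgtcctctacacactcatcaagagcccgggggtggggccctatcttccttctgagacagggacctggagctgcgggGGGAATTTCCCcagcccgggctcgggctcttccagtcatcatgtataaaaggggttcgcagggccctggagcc
The match GGGAATTTCC begins 71 bases before the start in Cxcl1, 97 in Cxcl2 and 73 in Cxcl3. A match is a description of the sequence and binding was not measured. Cxcl5 had no entry.

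Cxcl1 was the most abundant of the neutrophil attractants and was highest at acute 72 h. Its level was 352, 198, 129 and 407 CPM in the healthy libraries and 399.7, 798 and 667 CPM at acute 24 h. At acute 72 h it reached 1188, 2600, 1329 and 1472 CPM and at acute 7 d it was 361, 260.2, 385 and 586 CPM. All acute 72 h libraries lay above every library of the other groups, and the acute 7 d libraries overlapped healthy. In the chronic groups the libraries held 316, 1104, 1054 and 947 CPM at 24 h, 465, 755, 536 and 900.2 CPM at 72 h and 372, 589, 603 and 581 CPM at 14 d. Chronic 24 h replicate 1, at 316 CPM, lay inside the healthy range, and the other 3 lay well above it. In edgeR Cxcl1 was higher than healthy at acute 24 h (log2FC 1.20 ± 0.41, adjusted p = 0.0269) and acute 72 h (log2FC 2.49 ± 0.41, adjusted p = 0.000104). So it was at chronic 24 h (log2FC 1.65 ± 0.39, adjusted p = 0.0025) and chronic 72 h (log2FC 1.17 ± 0.39, adjusted p = 0.035). It was lower at acute 7 d than at acute 72 h (log2FC -2.04 ± 0.40, adjusted p = 0.00158). The acute 24 h call ended without healthy replicate 2 or 3 or acute 24 h replicate 2 or 3 (log2FC 0.97 to 1.48, adjusted p up to 0.126). At chronic 72 h it ended without healthy replicate 2 or 3 or chronic 72 h replicate 2 or 4 (log2FC 0.94 to 1.45, adjusted p up to 0.127). Cxcl1 was higher at acute 72 h than at acute 24 h (log2FC 1.29 ± 0.43, adjusted p = 0.0316). That call ended without acute 24 h replicate 1 or 3 or acute 72 h replicate 2 or 4 (log2FC 0.98 to 1.52, adjusted p up to 0.156).

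Cxcl2, which attracts the same cells, was raised in all 6 injured groups. It had 11, 3.89, 9.76 and 35.5 CPM in healthy libraries, 48.1, 83.5 and 56 CPM at acute 24 h, 107, 287, 152 and 171 CPM at acute 72 h and 100.2, 110.4, 135 and 219 CPM at acute 7 d. The chronic libraries held 109, 310.1, 164 and 176 CPM at 24 h, 73.9, 179, 53.9 and 163 CPM at 72 h and 34.7, 98.4, 68.7 and 69.5 CPM at 14 d. Every injured library except chronic 14 d replicate 1 lay above the highest healthy one. The largest change was at chronic 24 h (log2FC 3.63 ± 0.57, adjusted p = 3.35e-05) and the smallest at chronic 14 d (log2FC 1.98 ± 0.53, adjusted p = 0.0218). The latter ended without healthy replicate 1, 2 or 3 or chronic 14 d replicate 2 (log2FC 1.67 to 2.88, adjusted p up to 0.0725). Cxcl2 was lower at chronic 14 d than at chronic 24 h (log2FC -1.65 ± 0.52, adjusted p = 0.0254). The difference was no longer called without replicate 2 or 4 of chronic 24 h or replicate 1, 3 or 4 of chronic 14 d (log2FC -1.87 to -1.31, adjusted p up to 0.0946). Cxcl3, the neighbour of Cxcl5, was rare, at 0 to 0.886 CPM in healthy and 2.09 to 5.11 CPM in acute 72 h libraries, and was called higher in 5 comparisons with log2 fold changes of 1.98 to 2.73. Its call at chronic 72 h ended without healthy replicate 3 (log2FC 1.57 to 2.65, adjusted p up to 0.0587). At chronic 24 h it was lost in the libraries of higher depth (log2FC 1.98, adjusted p = 0.0701).

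Cxcl5, another ligand of CXCR2, did not follow the time course of its neighbours. Its level was 0.965, 0, 0.476 and 0 CPM in healthy libraries, 0.253, 0.326 and 0.993 CPM at acute 24 h, 2.24, 4.4, 2.93 and 2.39 CPM at acute 72 h and 3.86, 2.32, 4.27 and 6.21 CPM at acute 7 d. It was 2.45, 1.85, 1.39 and 2.53 CPM at chronic 24 h, 5.91, 4.6, 2.07 and 4.3 CPM at chronic 72 h and 9.47, 7.18, 10.8 and 5.86 CPM at chronic 14 d, where Cxcl1 was not called. The chronic 14 d libraries were the highest of any group except for acute 7 d replicate 4 (6.21 CPM) and chronic 72 h replicate 1 (5.91 CPM), which passed the lowest of them. Cxcl5 was higher than healthy at chronic 14 d (log2FC 4.31 ± 0.67, adjusted p = 0.000257), and higher there than at chronic 24 h (log2FC 1.84 ± 0.58, adjusted p = 0.0245), while Cxcl2 was lower. That last call of Cxcl5 ended without replicate 2 or 3 of chronic 24 h or replicate 1 or 3 of chronic 14 d (log2FC 1.70 to 2.03, adjusted p up to 0.0702). It was lost with depth class as a term (log2FC 1.64, adjusted p = 0.1). Acute 72 h was higher than acute 24 h (log2FC 2.37 ± 0.70, adjusted p = 0.0156), a call that ended without acute 24 h replicate 1 or 2 (log2FC 2.05 to 3.20, adjusted p up to 0.0868). The call at chronic 24 h against healthy (log2FC 2.47 ± 0.66, adjusted p = 0.00616) was lost in libraries of higher depth (log2FC 2.44, adjusted p = 0.0568).

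CXCL9 and CXCL10 are interferon-induced ligands of CXCR3, which is carried by effector T and NK cells. Their genes are neighbours on chromosome 5 (92321347 to 92348889). Cxcl10 had its lowest group means 24 h after an injection, whether 1 or 8 had been given. It had 225, 113, 88.8 and 212 CPM in healthy libraries and 47.6, 60.4 and 24.3 CPM at acute 24 h. It then had 163, 165, 234 and 233 CPM at acute 72 h and 58.5, 22.7, 74 and 193 CPM at acute 7 d. All acute 24 h libraries lay below all healthy ones, acute 72 h overlapped healthy, and acute 7 d spread from below to within the healthy range. The chronic groups had 53.1, 56.3, 49.3 and 46.7 CPM at 24 h, 178, 291, 136 and 131 CPM at 72 h and 325, 296, 302 and 228 CPM at 14 d. In edgeR Cxcl10 was lower than healthy at acute 24 h (log2FC -1.85 ± 0.49, adjusted p = 0.00489) and chronic 24 h (log2FC -1.64 ± 0.44, adjusted p = 0.0058). In libraries of higher depth the latter was not called (log2FC -1.72, adjusted p = 0.0644). Cxcl10 was higher at acute 72 h than at acute 24 h (log2FC 2.06 ± 0.49, adjusted p = 0.00343) and at chronic 14 d than at chronic 24 h (log2FC 2.32 ± 0.45, adjusted p = 0.000605). Cxcl10 shares exon sequence with Art3 on the other strand, and the strand of the counting is not stated. Cxcl9 was called only at chronic 24 h (log2FC 2.52 ± 0.76, adjusted p = 0.0145), where replicate 1 held 73.1 CPM and the other 3 between 3.43 and 9.1 CPM. That call ended without chronic 24 h replicate 1 (log2FC 0.54 to 2.88, adjusted p up to 0.49). The 250 bases before the start of Cxcl10 are printed because it was lower at the 24 h times at which Cxcl1 was higher, and this window too holds kappaB matches, shown in capitals.
Cxcl10 (chr5:92348890-92349139, minus strand): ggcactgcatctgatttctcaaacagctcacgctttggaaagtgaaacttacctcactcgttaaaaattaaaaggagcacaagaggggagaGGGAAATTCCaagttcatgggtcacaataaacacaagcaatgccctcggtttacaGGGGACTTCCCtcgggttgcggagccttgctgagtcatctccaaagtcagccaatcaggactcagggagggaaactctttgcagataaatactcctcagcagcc
The matches begin 159, 104 and 103 bases before the start, the last 2 overlapping, and the window also holds 1 match each to the ISRE and AP-1 letters.

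Cxcl12, which holds leukocytes and progenitors in place through CXCR4, was called lower at the 24 h times and at no later time. The healthy libraries had 5889, 7361, 7755 and 8039 CPM and the acute 24 h libraries 3276, 2018 and 2042 CPM. The acute 72 h libraries had 3729, 3946, 5495 and 7005 CPM and the acute 7 d libraries 8071, 7833, 5964 and 9320.4 CPM. No acute 24 h library reached the healthy range, acute 72 h replicates 1 to 3 also lay below it, and acute 7 d overlapped it. The chronic libraries had 2522, 3418, 4808 and 3187 CPM at 24 h, 10387, 9784, 9714 and 10910.2 CPM at 72 h and 7731, 7110.4, 11318 and 7216 CPM at 14 d. All chronic 72 h libraries lay above the highest healthy one, with a log2 fold change of 0.37 and an adjusted p = 0.263 in edgeR. The gene was lower than healthy at acute 24 h (log2FC -1.57 ± 0.25, adjusted p = 4.14e-05) and chronic 24 h (log2FC -1.07 ± 0.22, adjusted p = 0.000825). It was higher at chronic 14 d than at chronic 24 h (log2FC 1.08 ± 0.22, adjusted p = 0.00123). The changes at chronic 24 h were close to the 2-fold limit. The sum of the 15 stellate cell markers was also lower at both 24 h times. They summed to 25487 to 30385 CPM in healthy, 13507 to 18682 CPM in acute 24 h and 9269.9 to 9943 CPM in chronic 24 h libraries. Of the 15, 8 were called lower at acute 24 h and 10 at chronic 24 h (all genes, 12.5 and 8.11 percent). At chronic 24 h 1 was called higher (all genes, 11.2 percent). At chronic 72 h, where Cxcl12 was at its highest, 9 were lower (all genes, 4.2 percent). The part of these markers in the result was not tested. Against healthy the call ended without chronic 24 h replicate 1 (log2FC -1.28 to -0.94, adjusted p up to 0.00407), and in the libraries of higher depth the value was below the limit (log2FC -0.85, adjusted p = 0.0419). Against chronic 14 d it ended without replicate 1 of chronic 24 h or replicate 3 of chronic 14 d (log2FC 0.95 to 1.29, adjusted p up to 0.00514).

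Cxcl14, a chemokine of epithelia and stroma, showed the largest log2 fold change against healthy of the members with counts in healthy libraries. It had 3.33, 2.04, 2.22 and 8.22 CPM in healthy libraries and 520.1, 303 and 203 CPM at acute 24 h. It fell back to 33.4, 71.7, 16.9 and 22.8 CPM at acute 72 h and 30.6, 33.6, 42.8 and 19.3 CPM at acute 7 d. The acute 24 h libraries lay above all others except those of chronic 24 h, and no injured library overlapped healthy. The chronic course had the same shape, with 228, 44.6, 199 and 269 CPM at 24 h, 32.2, 22.7, 30.8 and 43.3 CPM at 72 h and 32, 19.6, 20.6 and 11.4 CPM at 14 d. Replicate 2 of chronic 24 h stood apart from its group at 44.6 CPM. Against healthy the change was 85.8-fold at acute 24 h (log2FC 6.42 ± 0.66, adjusted p = 2.11e-07) and 46.1-fold at chronic 24 h (log2FC 5.53 ± 0.62, adjusted p = 4.99e-07). Cxcl14 was lower at acute 72 h than at acute 24 h (log2FC -3.35 ± 0.57, adjusted p = 0.00016) and at chronic 14 d than at chronic 24 h (log2FC -3.31 ± 0.56, adjusted p = 0.000153). At chronic 14 d the gene was still higher than healthy (log2FC 2.21 ± 0.55, adjusted p = 0.0131). That call ended without healthy replicate 2 (log2FC 1.93 to 2.88, adjusted p up to 0.053). Cxcl13, which draws B cells into follicles, was rare, at 0 to 2.01 CPM in healthy and 2.38 to 9.36 CPM in chronic 24 h libraries. It was called at chronic 24 h alone (log2FC 3.04 ± 1.09, adjusted p = 0.0361), and the call ended without healthy replicate 1, 2 or 3 or chronic 24 h replicate 1 (adjusted p up to 0.11). Cxcl16, the transmembrane ligand of CXCR6, had 110 to 122 CPM in healthy and 83 to 223 CPM in chronic 24 h libraries and was called in no comparison. Its exons overlap Zmynd15 on the other strand.

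**Figure D3:**
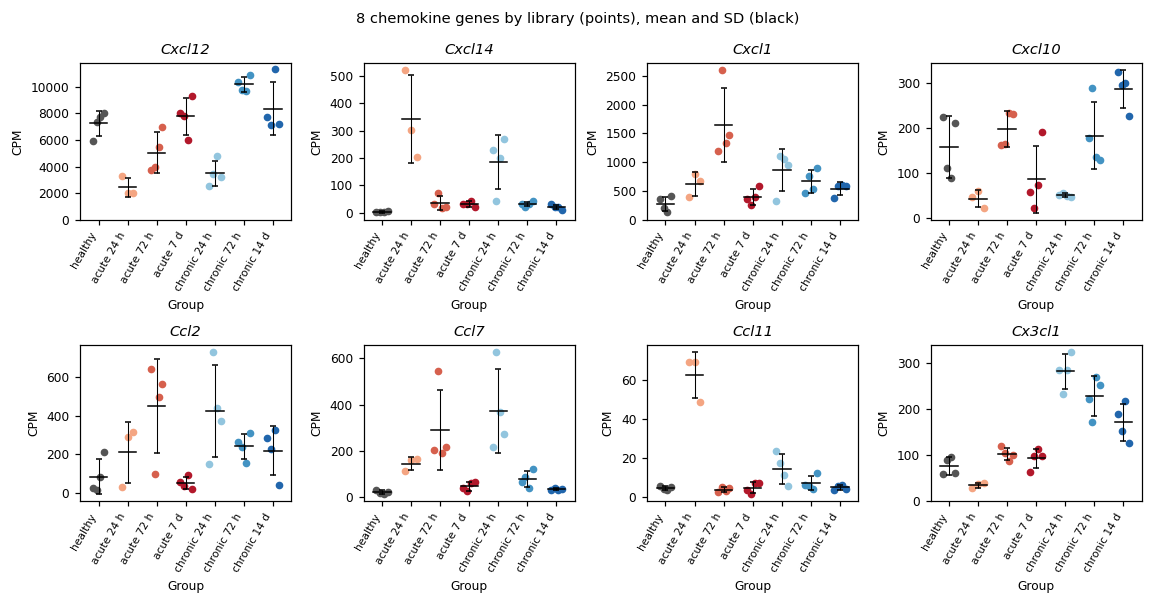
CPM of 8 chemokine genes in each library (points), with the mean (line) and SD (bars) of each of the 7 groups. Cxcl14 and Ccl11 were highest at acute 24 h, Cxcl1 at acute 72 h, and Cxcl12 and Cxcl10 were lowest at the 24 h times.

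Of the CC chemokines that recruit monocytes and eosinophils, Ccl2, Ccl7, Ccl8, Ccl11 and Ccl12 lie with Ccl1 within 270.1 kb of chromosome 11 (82035571 to 82305690). The highest group means of these genes were not all at the same time. Ccl2, the main ligand of CCR2, had 28.6, 18.2, 81.6 and 212 CPM in healthy libraries, 30.9, 289.5 and 315 CPM at acute 24 h, 637, 100.4, 498 and 561 CPM at acute 72 h and 57.6, 38.7, 95.3 and 19.9 CPM at acute 7 d. Healthy replicate 4 lay above acute 24 h replicate 1 and acute 72 h replicate 2, so these groups overlapped. After 8 injections the libraries had 150.1, 728, 441 and 372 CPM at 24 h, 263, 240.3, 156 and 309 CPM at 72 h and 285, 226, 325 and 43.9 CPM at 14 d. Ccl2 was called higher at acute 72 h (log2FC 2.27 ± 0.79, adjusted p = 0.0418). This ended without healthy replicate 1, 2 or 3 or acute 72 h replicate 1, 3 or 4 (log2FC 1.93 to 3.28, adjusted p up to 0.11). It was also called at chronic 24 h (log2FC 2.29 ± 0.79, adjusted p = 0.0308), which ended without healthy replicate 1, 2 or 3 or chronic 24 h replicate 2 or 3 (log2FC 1.90 to 3.30, adjusted p up to 0.0911). It was lost in the libraries of higher depth (log2FC 2.25, adjusted p = 0.0911). It was lower at acute 7 d than at acute 72 h (log2FC -3.06 ± 0.82, adjusted p = 0.0159). That call ended without acute 7 d replicate 4 (log2FC -3.57 to -2.79, adjusted p up to 0.0542).

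Ccl7, another ligand of CCR2, lies beside Ccl2 and was higher than healthy at both 24 h times and both 72 h times. Healthy libraries had 32.3, 18, 13.5 and 21.2 CPM, acute 24 h libraries 113, 159 and 163 CPM, acute 72 h libraries 204, 546, 191 and 217 CPM and acute 7 d libraries 37.9, 24.6, 63.3 and 65 CPM. The chronic groups had 218, 628, 369 and 275 CPM at 24 h, 67.4, 88.2, 38.7 and 119.8 CPM at 72 h and 29.3, 41.3, 32.5 and 36.4 CPM at 14 d. All acute 24 h, acute 72 h, chronic 24 h and chronic 72 h libraries lay above healthy, and acute 7 d and chronic 14 d overlapped it. In edgeR the gene was higher than healthy at acute 24 h (log2FC 2.78 ± 0.44, adjusted p = 3.81e-05) and acute 72 h (log2FC 3.67 ± 0.44, adjusted p = 3.61e-06). The same held at chronic 24 h (log2FC 4.13 ± 0.45, adjusted p = 3.22e-07) and chronic 72 h (log2FC 1.78 ± 0.41, adjusted p = 0.00344). Ccl7 was lower at chronic 14 d than at chronic 24 h (log2FC -3.58 ± 0.44, adjusted p = 4.16e-06) and at acute 7 d than at acute 72 h (log2FC -2.58 ± 0.42, adjusted p = 0.000308). It was also higher at chronic 24 h than at acute 24 h (log2FC 1.34 ± 0.45, adjusted p = 0.0329). That call ended without any single acute 24 h library or chronic 24 h replicate 2 or 3 (log2FC 0.98 to 1.53, adjusted p up to 0.135) and was lost in the libraries of higher depth (log2FC 1.11, adjusted p = 0.191).

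Ccl11, or eotaxin, which attracts eosinophils through CCR3, was called higher than healthy in the 24 h groups alone. It had 5.7, 4.17, 3.49 and 4.83 CPM in healthy and 69.6, 69.6 and 48.8 CPM in acute 24 h libraries. By acute 72 h it had 2.33, 4.75, 2.76 and 4.38 CPM and by acute 7 d 3.51, 1.29, 6.91 and 6.97 CPM, both overlapping healthy. It had 23.5, 17.3, 11 and 5.29 CPM at chronic 24 h, with the 2 libraries of lower depth highest, 6.05, 5.67, 3.89 and 12 CPM at chronic 72 h and 3.3, 5.69, 6.19 and 4.12 CPM at chronic 14 d. The rise at acute 24 h (log2FC 3.79 ± 0.50, adjusted p = 4.3e-06) was larger than that at chronic 24 h (log2FC 1.63 ± 0.45, adjusted p = 0.00832). The 24 h groups differed (log2FC -2.16 ± 0.47, adjusted p = 0.00189). In the libraries of higher depth the rise at chronic 24 h was lost (log2FC 0.85, adjusted p = 0.268), while the difference between the 24 h groups held (log2FC -2.98, adjusted p = 0.00572). Ccl11 was lower at acute 72 h than at acute 24 h (log2FC -4.25 ± 0.51, adjusted p = 2.58e-06), and at chronic 14 d than at chronic 24 h (log2FC -1.72 ± 0.46, adjusted p = 0.00913).

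Ccl8, another attractant of monocytes, had 0 counts in all healthy libraries, so its changes are lower bounds against 3 counts per library. The acute libraries had 1.52, 1.39 and 0.828 CPM at 24 h, 0, 0.176, 0 and 0 CPM at 72 h and 1.03, 0, 0 and 2.6 CPM at 7 d. The chronic groups had 3.6, 1.71, 1.14 and 0.69 CPM at 24 h, 0.844, 0, 0.795 and 0.691 CPM at 72 h and 0, 1.08, 0 and 0 CPM at 14 d. It was detected in every library of both 24 h groups and in 7 of the other 20. It was at least 4.88-fold higher than healthy at acute 24 h (edgeR adjusted p = 0.0102), 3.56-fold at acute 7 d (adjusted p = 0.0223), 7.0-fold at chronic 24 h (adjusted p = 0.00615) and 2.28-fold at chronic 72 h (adjusted p = 0.0467). Calls ended at acute 7 d without acute 7 d replicate 4 (adjusted p up to 0.0867) and at chronic 72 h without any single healthy library or chronic 72 h replicate 1, 3 or 4 (adjusted p up to 0.0924). From acute 24 h to acute 72 h the counts fell from 45 to 2 in all libraries, a ratio of 0.0342 with an exact 95 percent interval of 0.00402 to 0.131 that covers counting error alone. The edgeR call (adjusted p = 0.0409) ended without any single acute 24 h library or acute 72 h replicate 1, 3 or 4 (adjusted p up to 0.0963). Ccl12 had no count in healthy and both 24 h groups and up to 1.84 CPM elsewhere, and Ccl24, another eotaxin, had 4.08 to 12.5 CPM in healthy and 8.14 to 25.4 CPM in acute 7 d libraries. Neither was called in any comparison.

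CCL3, CCL4, CCL5, CCL6 and CCL9 act on CCR1 and other receptors of monocytes, macrophages and T cells, and their genes lie within 139 kb of chromosome 11 (83525778 to 83664683). Ccl4 was lowest at acute 24 h and highest at chronic 72 h. It had 3.77, 1.95, 5.8 and 6.69 CPM in healthy libraries, 2.11, 2.12 and 1.08 CPM at acute 24 h, 15.7, 15.5, 10.6 and 21 CPM at acute 72 h and 25.6, 27.3, 37.7 and 51.8 CPM at acute 7 d. The chronic libraries had 12.7, 28.5, 16.7 and 22.2 CPM at 24 h, 46.1, 56.7, 19.9 and 93.8 CPM at 72 h and 20.8, 33.3, 23 and 15 CPM at 14 d. All injured libraries from acute 72 h on lay above healthy, whereas acute 24 h overlapped it at the low end. The call at acute 24 h (log2FC -1.36 ± 0.49, adjusted p = 0.0357) ended without healthy replicate 3 or 4 or any single acute 24 h library (log2FC -1.61 to -1.11, adjusted p up to 0.148). It was higher than healthy at acute 72 h (log2FC 1.66 ± 0.42, adjusted p = 0.00598) and acute 7 d (log2FC 2.86 ± 0.44, adjusted p = 4.27e-05). So it was at chronic 24 h (log2FC 2.11 ± 0.43, adjusted p = 0.000545), chronic 72 h (log2FC 3.45 ± 0.44, adjusted p = 7.47e-06) and chronic 14 d (log2FC 2.16 ± 0.43, adjusted p = 0.00236), and these 5 calls held with each library left out. Ccl4 was also higher at acute 72 h than at acute 24 h (log2FC 3.03 ± 0.51, adjusted p = 0.000132). Ccl3, its neighbour, went from 1.39 to 2.28 CPM at acute 24 h to 20.7 to 60.1 CPM at chronic 72 h, with log2 fold changes against healthy of -1.20 and 3.00. Its calls ended at acute 24 h without healthy replicate 4 or acute 24 h replicate 2 or 3 (log2FC -1.43 to -0.55, adjusted p up to 0.286). At acute 72 h they ended without healthy replicate 1, 2 or 3 or acute 72 h replicate 2, 3 or 4 (log2FC 0.89 to 1.76, adjusted p up to 0.115).

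Ccl6, a monocyte attractant of rodents, had the highest group median per kb of these 5 genes and was higher at acute 24 h, when Ccl3 and Ccl4 were lower. It had 8.42, 4.91, 8.49 and 15.6 CPM in healthy libraries, 36.6, 42.8 and 23.7 CPM at acute 24 h, 24.4, 34.7, 13.2 and 23 CPM at acute 72 h and 99.6, 148, 187 and 148 CPM at acute 7 d. The chronic libraries had 365, 273, 45.5 and 81.8 CPM at 24 h, 45.2, 83.3, 20.7 and 55.9 CPM at 72 h and 32.6, 61.8, 47.1 and 56.9 CPM at 14 d. Replicates 1 and 2 of chronic 24 h, of lower depth, held more than 3 times the level of replicates 3 and 4. Against healthy Ccl6 was higher at acute 24 h (log2FC 1.87 ± 0.54, adjusted p = 0.00944) and acute 7 d (log2FC 3.86 ± 0.55, adjusted p = 2.4e-05). The chronic calls were at chronic 24 h (log2FC 4.32 ± 0.57, adjusted p = 3.64e-06), chronic 72 h (log2FC 2.31 ± 0.52, adjusted p = 0.0028) and chronic 14 d (log2FC 2.22 ± 0.52, adjusted p = 0.00846). The last was lost with depth class as a term (log2FC 0.74, adjusted p = 0.506). Chronic 14 d was lower than chronic 24 h (log2FC -2.10 ± 0.51, adjusted p = 0.00451). The call at chronic 24 h against acute 24 h (log2FC 2.45 ± 0.58, adjusted p = 0.00368) was lost in libraries of higher depth (log2FC 0.85, adjusted p = 0.279). Ccl9 was higher in 5 comparisons with healthy, by log2 fold changes of 1.92 at acute 72 h to 4.04 at chronic 24 h. Healthy replicate 4 had 12 CPM of Ccl9 and the other 3 at most 1.03 CPM. Its calls ended at acute 72 h without healthy replicate 1, 2 or 3 or acute 72 h replicate 2, 3 or 4 (log2FC 1.57 to 4.07, adjusted p up to 0.132). At chronic 72 h they ended without healthy replicate 1, 2 or 3 or chronic 72 h replicate 4 (log2FC 2.01 to 4.51, adjusted p up to 0.0609). At chronic 14 d they ended without healthy replicate 1, 2 or 3 or chronic 14 d replicate 2 (log2FC 2.16 to 4.66, adjusted p up to 0.0839). Ccl5, made by T cells and macrophages, was called at chronic 24 h (log2FC 2.46 ± 0.87, adjusted p = 0.0335) and chronic 14 d (log2FC 3.27 ± 0.88, adjusted p = 0.0211). The first call ended without healthy replicate 2, 3 or 4 or chronic 24 h replicate 1 (log2FC 1.72 to 3.04, adjusted p up to 0.144). The other ended without healthy replicate 2 or chronic 14 d replicate 1 (log2FC 2.85 to 3.85, adjusted p up to 0.0679). It was also higher at chronic 24 h than at acute 24 h (log2FC 3.56 ± 1.05, adjusted p = 0.0175), where the call ended without acute 24 h replicate 2 or 3 or chronic 24 h replicate 1 (log2FC 2.82 to 8.11, adjusted p up to 0.0856).

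Among the chemokines of lymphoid tissue and barriers, Ccl22 and Ccl17, both ligands of CCR4, lie on chromosome 8 on either side of Cx3cl1 (94745590 to 94812036). Ccl22 had 0 counts in all healthy and acute 24 h libraries and 0.179, 0, 0 and 0 CPM at acute 72 h. It had 1.2, 2.15, 1.24 and 1.99 CPM at acute 7 d, 8.92, 7.39, 0 and 1.3 CPM at chronic 24 h, 3.52, 1.69, 0 and 1.3 CPM at chronic 72 h and 1.43, 4.34, 0.941 and 2.69 CPM at chronic 14 d. Replicate 3 of chronic 24 h and of chronic 72 h had none. Against healthy it was at least 6.45-fold higher at acute 7 d (edgeR adjusted p = 0.00885), 17.3-fold at chronic 24 h (adjusted p = 0.00134), 6.38-fold at chronic 72 h (adjusted p = 0.0115) and 9.21-fold at chronic 14 d (adjusted p = 0.0142). In libraries of higher depth alone the adjusted p was 0.0554 at chronic 24 h and 0.0795 at chronic 72 h, and with depth class as a term it was 0.161 at chronic 14 d. Chronic 24 h was at least 17.7-fold higher than acute 24 h (adjusted p = 0.00556), a call that was lost in libraries of higher depth (adjusted p = 0.113) and with only the 2 groups fitted. From acute 72 h to acute 7 d the counts rose from 2 to 81 in all libraries, a ratio of 38.7 (exact 95 percent interval 10.4 to 325, counting error alone). The call ended without acute 72 h replicate 2, 3 or 4 or acute 7 d replicate 2, 3 or 4 (adjusted p up to 0.0946). Ccl17 had 1.87, 0, 0.736 and 1.23 CPM at chronic 24 h and 0 in all healthy, acute 24 h and acute 7 d libraries. It had 0, 0.44, 0 and 0 CPM at acute 72 h, 0.281, 0, 0 and 0.921 CPM at chronic 72 h and 1, 0, 0.807 and 0 CPM at chronic 14 d. The chronic 24 h value was at least 3.75-fold higher than healthy (edgeR adjusted p = 0.0312) and the call ended without any single healthy library or chronic 24 h replicate 1 or 4 (adjusted p up to 0.0612). Ccl25, a ligand of CCR9 whose exons overlap Elavl1 on the other strand, had 5.72 to 8.43 CPM in healthy and 3.37 to 5.9 CPM in chronic 24 h libraries and was called in no comparison.

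Cx3cl1, or fractalkine, is made as a membrane-bound ligand of CX3CR1. It was lower at acute 24 h and higher at chronic 24 h and 72 h. Its level was 58.7 to 96 CPM in healthy, 28.1 to 38.8 CPM in acute 24 h and 232 to 324 CPM in chronic 24 h libraries, and these 3 ranges did not overlap. It was 171 to 269 CPM at chronic 72 h and 126 to 217 CPM at chronic 14 d. In edgeR it was lower at acute 24 h (log2FC -1.12 ± 0.24, adjusted p = 0.000761) and higher at chronic 24 h (log2FC 1.88 ± 0.22, adjusted p = 7.44e-07) and chronic 72 h (log2FC 1.47 ± 0.22, adjusted p = 3.54e-05). The difference between chronic 24 h and acute 24 h was 8.01-fold (log2FC 3.00 ± 0.26, adjusted p = 5.7e-08), and in the libraries of higher depth it held (log2FC 3.10, adjusted p = 3.08e-06). The acute 24 h call, near the 2-fold limit, ended without healthy replicate 3 or acute 24 h replicate 1 (log2FC -1.24 to -0.99, adjusted p up to 0.00955). Xcl1, or lymphotactin, whose exons overlap Gm20743 on the other strand, was rare, at up to 0.318 CPM in healthy and 2.57 CPM in acute 7 d libraries. It was called at acute 7 d (log2FC 2.45 ± 0.85, adjusted p = 0.0393), chronic 72 h (log2FC 2.51 ± 0.86, adjusted p = 0.042) and chronic 14 d (log2FC 3.20 ± 0.87, adjusted p = 0.0222). At acute 7 d the call ended without healthy replicate 1, 2 or 4 or acute 7 d replicate 1 or 4 (log2FC 1.79 to 2.82, adjusted p up to 0.168). At chronic 72 h it ended without any single healthy library or chronic 72 h replicate 1, 2 or 4 (log2FC 2.13 to 2.93, adjusted p up to 0.108), and at chronic 14 d without healthy replicate 2 (log2FC 2.82 to 3.57, adjusted p up to 0.0672). At chronic 24 h against acute 24 h 26 counts stood against 1, a ratio of 23.6 with an exact 95 percent interval of 3.88 to 969 for counting error alone. The edgeR call (adjusted p = 0.0161) ended without acute 24 h replicate 2 or 3 (adjusted p up to 0.0784).

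Among the receptors of CC chemokines, Ccr1 was higher than healthy in all 6 injured groups. The healthy libraries had 0.263, 0.278, 0.238 and 0 CPM, at most 3 counts each. The acute libraries had 5.15, 3.43 and 0.745 CPM at 24 h, 5.47, 3.61, 2.34 and 2.95 CPM at 72 h and 11.4, 22.3, 9.47 and 7.12 CPM at 7 d. Those of the chronic groups had 16.3, 18.7, 7.6 and 10.7 CPM at 24 h, 6.05, 5.67, 1.19 and 5.37 CPM at 72 h and 4.16, 6.91, 6.19 and 6.65 CPM at 14 d. No injured library overlapped healthy. The change was smallest at acute 24 h (edgeR log2FC 3.95 ± 0.69, adjusted p = 0.000108) and greatest at chronic 24 h (log2FC 6.02 ± 0.68, adjusted p = 4.81e-07), and in all 6 groups Ccr1 kept its call with any library left out. Ccr1 was higher at acute 7 d than at acute 72 h (log2FC 1.80 ± 0.51, adjusted p = 0.0234) and at chronic 24 h than at acute 24 h (log2FC 2.07 ± 0.58, adjusted p = 0.0121). The first of these calls ended without acute 72 h replicate 2, 3 or 4 or acute 7 d replicate 2 (log2FC 1.39 to 2.08, adjusted p up to 0.0979). The other ended without acute 24 h replicate 3 (log2FC 1.61 to 2.64, adjusted p up to 0.0607). It was also lost with depth class as a term (log2FC 1.60, adjusted p = 0.0599) and in libraries of higher depth alone (log2FC 1.51, adjusted p = 0.18).

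Ccr2, the receptor of CCL2 and CCL7 on inflammatory monocytes, was near the healthy level at acute 24 h and far above it at acute 7 d. It had 1.02 to 5.4 CPM in healthy, 0.745 to 3.04 CPM in acute 24 h, 9.95 to 20.3 CPM in acute 72 h and 91.7 to 195 CPM in acute 7 d libraries. The chronic ranges were 23.8 to 51.8 CPM at 24 h, 10.6 to 35.4 CPM at 72 h and 18 to 32.1 CPM at 14 d, all above healthy. It was 48.5-fold higher than healthy at acute 7 d (log2FC 5.60 ± 0.51, adjusted p = 7.81e-08), and 20-fold higher at chronic 24 h than at acute 24 h (log2FC 4.32 ± 0.55, adjusted p = 6.28e-06). Its ligand Ccl2 was lower at acute 7 d than at acute 72 h. Ccr7, which guides dendritic cells and naive T cells to lymph nodes, was 5.93-fold higher than healthy at acute 7 d (log2FC 2.57 ± 0.37, adjusted p = 2.1e-05) and 7.91-fold higher at chronic 14 d (log2FC 2.98 ± 0.37, adjusted p = 1.99e-05).

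Ccr3, the eotaxin receptor, had 6.58, 2.59, 7.78 and 19.7 CPM in healthy and 2.03, 3.1 and 1.57 CPM in acute 24 h libraries, when its ligand Ccl11 was highest. It had 7.62, 4.58, 2.18 and 3.35 CPM at acute 72 h, 14.7, 22.7, 25.9 and 56.6 CPM at acute 7 d and 5.33, 12.8, 4.41 and 7.59 CPM at chronic 24 h. It had 11, 15.5, 7.79 and 5.22 CPM at chronic 72 h and 4.16, 11.7, 4.97 and 1.11 CPM at chronic 14 d. Healthy replicate 4 stood high, and acute 24 h and healthy overlapped. Ccr3 was lower at acute 24 h than in healthy libraries (log2FC -2.04 ± 0.69, adjusted p = 0.0259), a call that ended without healthy replicate 4 or acute 24 h replicate 1 or 3 (log2FC -2.35 to -1.32, adjusted p up to 0.131). Ccr3 was higher at acute 7 d than at acute 72 h (log2FC 2.77 ± 0.62, adjusted p = 0.00476). Ccr6, the receptor of CCL20, had 0.263, 0, 0.238 and 0 CPM in healthy, 0 in all acute 24 h, 0.179, 0, 0 and 0 CPM in acute 72 h and 1.29, 0.687, 0.854 and 0.613 CPM in acute 7 d libraries. It had 0.432, 0.396, 0 and 0.537 CPM at chronic 24 h, 0.985, 1.23, 0.397 and 0.844 CPM at chronic 72 h and 1.15, 0.813, 1.21 and 0 CPM at chronic 14 d. It was called at chronic 24 h against acute 24 h (at least 1.37-fold, edgeR adjusted p = 0.0389) and at acute 7 d against acute 72 h, where 42 counts stood against 2, a ratio of 20 with an exact 95 percent interval of 5.21 to 171 for counting error alone. The first call ended without any single acute 24 h library or chronic 24 h replicate 1, 2 or 4 (adjusted p up to 0.108). The other ended without acute 72 h replicate 2, 3 or 4 or acute 7 d replicate 1 or 3 (adjusted p up to 0.0855). Ccr9, the receptor of CCL25, had at most 5.9 CPM and Ccr10 at most 1.71 CPM in any library, and neither was called in any comparison.

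Cxcr2, the neutrophil receptor of the ELR chemokines, was higher than healthy in all 6 injured groups. The healthy libraries had 0.263, 0.371, 0.159 and 0 CPM and the acute 24 h libraries 2.45, 3.1 and 1.49 CPM. It had 2.06, 0.616, 0.502 and 0.478 CPM at acute 72 h and 5.05, 1.2, 1.55 and 1.92 CPM at acute 7 d, and no injured library overlapped healthy. The chronic libraries had 6.48, 7.12, 2.29 and 2.3 CPM at 24 h, 1.69, 2.15, 0.795 and 1.3 CPM at 72 h and 4.73, 5.01, 5.65 and 4.28 CPM at 14 d. The change was 11.6-fold at acute 24 h (log2FC 3.53 ± 0.69, adjusted p = 0.000353) and 21.3-fold at chronic 14 d (log2FC 4.41 ± 0.68, adjusted p = 0.000212). The smallest change was at acute 72 h (log2FC 2.07 ± 0.68, adjusted p = 0.0307). There acute 72 h replicate 1 held 2.06 CPM and the other 3 at most 0.616 CPM, and the call ended without healthy replicate 3 or 4 or acute 72 h replicate 1 (log2FC 1.30 to 2.52, adjusted p up to 0.175). Genes of neutrophils were present at low levels. The summed CPM of 11 neutrophil genes was 0 to 1.84 in healthy, 2.9 to 18.5 in acute 24 h, 7.7 to 11.4 in acute 72 h and 52.7 to 71.9 in chronic 14 d libraries. At acute 24 h 5 of the 7 tested were higher (all genes, 9.41 percent) and Ly6g was at 0 in every acute 24 h library. The part of these cells in the result was not tested.

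Cx3cr1, the fractalkine receptor of monocytes and tissue macrophages, was lower at acute 24 h and higher from acute 7 d on. It had 6.23, 3.43, 7.94 and 8.62 CPM in healthy and 1.27, 1.79 and 1.57 CPM in acute 24 h libraries, which did not overlap. It had 17.2, 10.6, 6.44 and 12.4 CPM at acute 72 h, 17.5, 37.1, 44.6 and 48.5 CPM at acute 7 d and 13.7, 29.3, 10.7 and 19.9 CPM at chronic 24 h. It had 15.5, 28.1, 12.8 and 11.1 CPM at chronic 72 h and 16.6, 19.2, 21.5 and 13.6 CPM at chronic 14 d, all above healthy. In edgeR it was lower at acute 24 h (log2FC -2.08 ± 0.45, adjusted p = 0.000871) and higher at acute 7 d (log2FC 2.40 ± 0.38, adjusted p = 6.85e-05) and chronic 24 h (log2FC 1.47 ± 0.37, adjusted p = 0.00404). The calls at chronic 72 h (log2FC 1.21 ± 0.37, adjusted p = 0.0227) and chronic 14 d (log2FC 1.25 ± 0.37, adjusted p = 0.0364) did not survive every omission. The first ended without healthy replicate 1 or 2 or chronic 72 h replicate 2 (log2FC 0.91 to 1.38, adjusted p up to 0.103). The other ended without healthy replicate 1, 2 or 3 or chronic 14 d replicate 1, 2 or 3 (log2FC 1.04 to 1.42, adjusted p up to 0.126). It was higher at acute 72 h than at acute 24 h (log2FC 2.79 ± 0.45, adjusted p = 8.8e-05) and at chronic 24 h than at acute 24 h (log2FC 3.54 ± 0.47, adjusted p = 8.88e-06). Its exons overlap Gm33858 on the other strand.

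Cxcr4, the receptor of CXCL12, was higher than healthy from acute 7 d on, when its ligand was not. It had 1.85 to 2.19 CPM in healthy, 0.414 to 1.3 CPM in acute 24 h and 14.8 to 30.5 CPM in acute 7 d libraries. It was called lower at acute 24 h (log2FC -1.26 ± 0.47, adjusted p = 0.0409). It was not called without any single healthy library or acute 24 h replicate 1 or 3 (log2FC -1.76 to -0.95, adjusted p up to 0.182). It was higher at acute 7 d (log2FC 3.45 ± 0.41, adjusted p = 2.53e-06) and chronic 24 h (log2FC 2.56 ± 0.40, adjusted p = 3.16e-05). The later chronic calls were at chronic 72 h (log2FC 2.59 ± 0.40, adjusted p = 6.48e-05) and chronic 14 d (log2FC 2.32 ± 0.40, adjusted p = 0.000694), the last being lost with depth class as a term (log2FC 1.57, adjusted p = 0.0723). The log2 fold changes of Cxcl12 at acute 7 d and the 3 chronic times were 0, -1.07, 0.37 and 0.01. At acute 72 h against acute 24 h Cxcr4 was higher (log2FC 1.66 ± 0.47, adjusted p = 0.0117), a call that ended without acute 24 h replicate 1 or 3 (log2FC 1.34 to 2.15, adjusted p up to 0.0751).

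Cxcr6, the receptor of CXCL16 on resident T and NKT cells, had its highest group mean at chronic 14 d. It had 0.175, 0.463, 4.76 and 1.77 CPM in healthy, 0.591, 0.326 and 0.248 CPM in acute 24 h, 0.628, 0.792, 1.17 and 0.398 CPM in acute 72 h and 8.14, 6.78, 1.79 and 7.35 CPM in acute 7 d libraries. It had 7.05, 2.64, 0.981 and 3.37 CPM at chronic 24 h, 10.3, 14.6, 1.27 and 2.07 CPM at chronic 72 h and 25.8, 17.3, 13.4 and 15.7 CPM at chronic 14 d. Only chronic 72 h replicate 2 reached the chronic 14 d range. Healthy replicate 3 had 4.76 CPM and the other healthy libraries at most 1.77 CPM. It was higher at chronic 14 d than in healthy (log2FC 3.13 ± 0.78, adjusted p = 0.0126) and than at chronic 24 h (log2FC 2.22 ± 0.75, adjusted p = 0.0346). With depth class as a term both calls were lost (log2FC 1.17, adjusted p = 0.504 and log2FC 1.29, adjusted p = 0.27). The latter also ended without replicate 2, 3 or 4 of chronic 24 h or replicate 1 or 2 of chronic 14 d (log2FC 1.91 to 2.79, adjusted p up to 0.102). For chronic 24 h against acute 24 h (log2FC 3.10 ± 0.97, adjusted p = 0.0237) the call ended without any single acute 24 h library or chronic 24 h replicate 1 (log2FC 2.53 to 3.52, adjusted p up to 0.0908). The call at acute 7 d against acute 72 h (log2FC 2.98 ± 0.81, adjusted p = 0.0175) ended without acute 72 h replicate 4 (log2FC 2.79 to 3.30, adjusted p up to 0.0513). At chronic 14 d the 14 T and NK cell genes summed to 31.5 to 68.4 CPM, against 1.77 to 6.75 CPM in healthy libraries. They had 7 of 13 tested genes higher (all genes, 4.55 percent) and Cd3d and Cd3g at 0 in all healthy libraries. Their part in the result was not tested.

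Cxcr3, the receptor of CXCL9 and CXCL10, had 0, 0, 0.873 and 1.13 CPM in healthy, 0, 0 and 0.414 CPM in acute 24 h, 0.538, 0, 0 and 0.478 CPM in acute 72 h and 4.54, 6.78, 3.03 and 4.44 CPM in acute 7 d libraries. It had 3.89, 1.32, 3.11 and 1.3 CPM at chronic 24 h, 4.08, 5.98, 0.397 and 2.53 CPM at chronic 72 h and 7.75, 6.37, 3.76 and 4.59 CPM at chronic 14 d. Acute 7 d, chronic 24 h and chronic 14 d lay wholly above healthy. Acute 7 d was also higher than acute 72 h (log2FC 4.14 ± 1.03, adjusted p = 0.00966). Against healthy it was called at acute 7 d (log2FC 3.05 ± 0.95, adjusted p = 0.0218) and chronic 14 d (log2FC 3.25 ± 0.96, adjusted p = 0.0355). The first call ended without healthy replicate 1 or 2 (log2FC 2.65 to 3.79, adjusted p up to 0.0605). The other ended without healthy replicate 1, 2 or 3 or chronic 14 d replicate 1 or 2 (log2FC 2.85 to 3.99, adjusted p up to 0.0956). The call at chronic 24 h against acute 24 h (log2FC 4.00 ± 1.23, adjusted p = 0.022) ended without acute 24 h replicate 1 or 2 (adjusted p up to 0.101). Cxcr5, the receptor of CXCL13 on B cells, had 2.19, 0.927, 1.43 and 0 CPM in healthy libraries, no count in any acute 24 h library and 1.43, 0.704, 0.669 and 0.956 CPM at acute 72 h. It had 3.94, 3.18, 3.26 and 5.36 CPM at acute 7 d, 2.73, 2.11, 0 and 1.15 CPM at chronic 24 h, 3.38, 2.45, 2.7 and 2.76 CPM at chronic 72 h and 5.74, 4.47, 10.1 and 3.01 CPM at chronic 14 d. At acute 24 h its mean was at least 4.57-fold lower than healthy (edgeR adjusted p = 0.00219). Healthy replicate 4 had no count either, so the groups overlapped, and the call was lost with only the 2 groups fitted. Chronic 24 h was at least 6.03-fold higher than acute 24 h (adjusted p = 0.00256) and acute 72 h at least 3.78-fold higher (adjusted p = 0.00571). The call at chronic 24 h was lost in libraries of higher depth (adjusted p = 0.0555), which held 0 and 1.15 CPM, and with only the 2 groups fitted. The 10 B and plasma cell genes summed to 6.93 to 30.5 CPM in healthy, 1.79 to 3.46 CPM in acute 24 h and 178 to 326 CPM in chronic 14 d libraries. At acute 24 h 3 of 9 were lower (all genes, 12.5 percent), and Ms4a1 was at 0 in some of the libraries. The part of these cells was not tested. The exons of Cxcr5 overlap Bcl9l on the other strand.

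**Figure D4:**
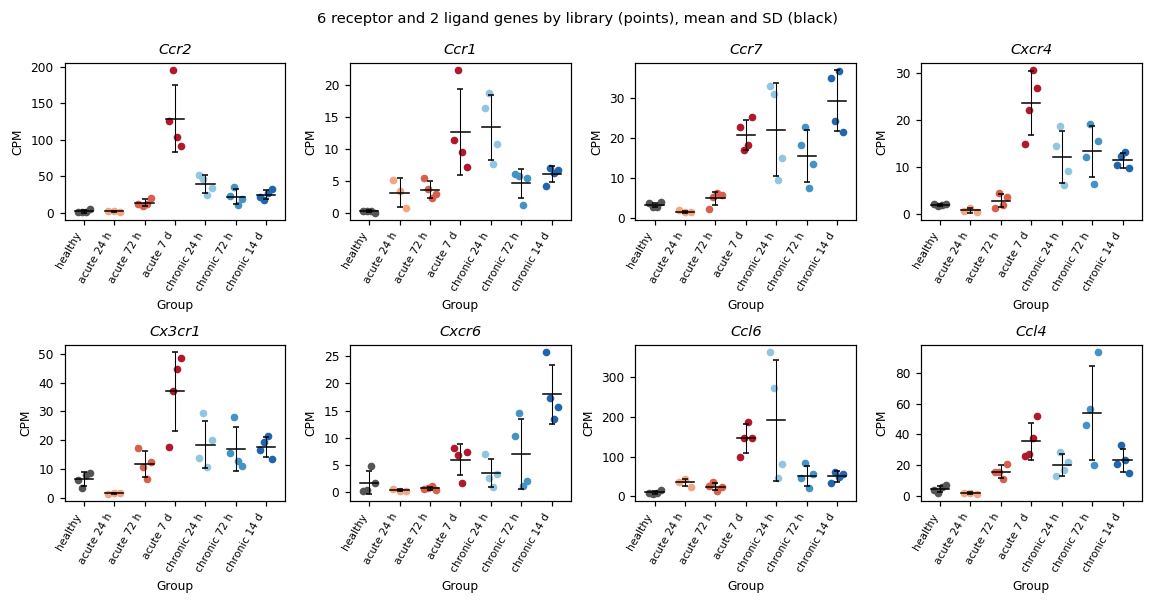
CPM of 6 receptor genes and of Ccl6 and Ccl4 in each library (points), with the mean (line) and SD (bars) of each of the 7 groups. The receptors Ccr2, Cxcr4 and Cx3cr1 were highest at acute 7 d, and Cxcr6 at chronic 14 d.

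Most pan-leukocyte and macrophage genes were higher at acute 7 d and chronic 24 h, when the summed receptors were also higher. Against healthy, 1 of the 10 pan-leukocyte genes was lower at acute 24 h (all genes, 12.5 percent). At acute 72 h 2 were higher, and at acute 7 d 9 were (all genes, 8.23 and 9.23 percent). The numbers higher were 9 at chronic 24 h, 9 at chronic 72 h and 8 at chronic 14 d (all genes, 11.2, 7.88 and 4.55 percent). The 12 macrophage genes summed to 115 to 413 CPM in healthy, 115 to 157 CPM in acute 24 h and 1239 to 3264 CPM in acute 7 d libraries. At acute 24 h 4 of 12 were lower (all genes, 12.5 percent), and at acute 72 h 1 was higher and 1 lower (all genes, 8.23 and 4.33 percent). At acute 7 d, chronic 24 h and chronic 72 h 9 of 12 were higher (all genes, 9.23, 11.2 and 7.88 percent). At chronic 14 d 3 of 12 were higher (all genes, 4.55 percent), where 9 of the 14 tested receptors were. The macrophage genes summed to 427 to 2009 CPM at chronic 24 h and 378 to 1096 CPM at chronic 14 d. Within chronic 24 h the macrophage sum was 1789 and 2009 CPM in the libraries of lower depth and 427 and 676 CPM in those of higher depth. Their defining genes Adgre1, Csf1r and Cd68 were above 0 in every library group, with Csf1r at 19.9 to 62.3 CPM in healthy and 159.7 to 472 CPM in acute 7 d libraries, and Ptprc, the pan-leukocyte CD45, at 3.79 to 8.26 and 35.6 to 56.2 CPM. Other leukocyte lists differed in their sums. Kupffer cell genes had a mean sum of 654 CPM at chronic 24 h and 879 CPM in healthy libraries, with 1 of 6 tested higher (all genes, 11.2 percent). Monocyte-derived genes had 103 and 145 CPM, with 5 of 6 higher and 1 lower (all genes, 11.2 and 8.11 percent). The sort on ultraviolet fluorescence selects for retinoid, and the labels name no step against CD45. The part of leukocyte RNA in the changes of the receptors and of Ccl3, Ccl4, Ccl5, Ccl6, Ccl9 and Ccl22 was not tested.

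**Figure D5:**
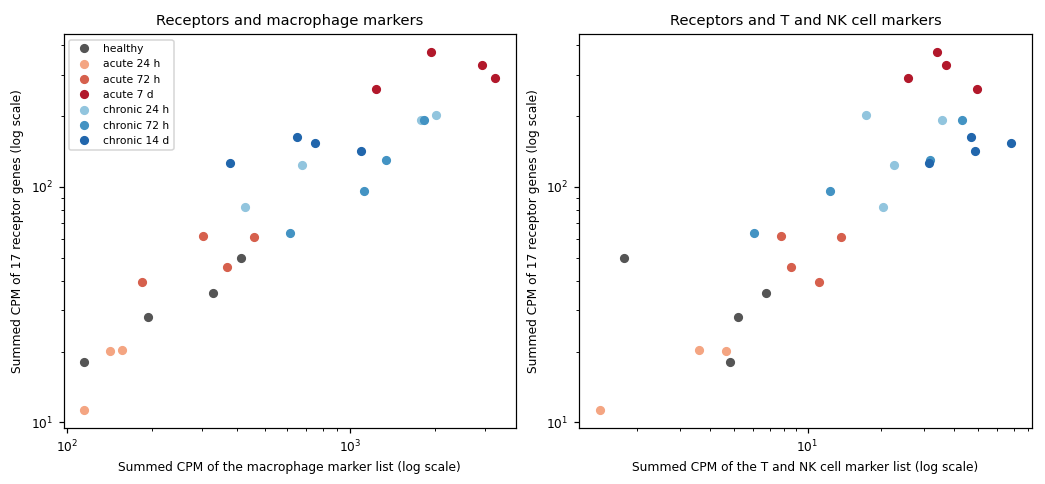
Summed CPM of the 17 receptor genes (y axis, log scale) against the summed CPM of 12 macrophage genes (left) and of 14 T and NK cell genes (right, x axes in log scale), 1 point for each of the 27 libraries, coloured by group. Acute 24 h libraries sit at the lower left and acute 7 d libraries at the top of both panels.

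The other genes of the chemokine pathway were a list of 30. It held atypical receptors, peptidases, signalling proteins and some other ligands and receptors. Among them were chemokines and a chemokine receptor whose symbols the member rule does not take. Of the 30 genes 29 were tested. Of these, at acute 24 h 2 were higher and 7 lower than healthy (all genes, 9.41 and 12.5 percent), with a median log2 fold change of -0.19 over the list and -0.12 over all genes. At acute 7 d 13 were higher and 3 lower (all genes, 9.23 and 5.64 percent), with a median of 0.73 (all genes 0.01). At chronic 24 h the counts were 10 and 4 (all genes, 11.2 and 8.11 percent), with a median of 0.64 (all genes -0.03). At acute 72 h 0 were higher and 4 lower (all genes, 8.23 and 4.33 percent). Chronic 72 h had 8 higher and 3 lower (all genes, 7.88 and 4.2 percent), and chronic 14 d 7 higher and 1 lower (all genes, 4.55 and 1.17 percent). Of the 4 atypical receptors 3 were lower at acute 24 h, and Ackr2 was called in no comparison with healthy. Ackr4, which removes the CCR7 ligands, fell from 40.4 to 49.2 CPM in healthy to 0 to 0.76 CPM in acute 24 h libraries (log2FC -6.99 ± 0.64, adjusted p = 4.11e-08). It was lower in all 6 comparisons with healthy, with 0.92 to 5.04 CPM at chronic 24 h (log2FC -4.13 ± 0.47, adjusted p = 4.64e-07). Ackr3, the scavenger of CXCL12, was lower at acute 24 h alone (log2FC -2.33 ± 0.72, adjusted p = 0.0148). Ackr1, which binds many CC and CXC ligands, was lower at acute 24 h (log2FC -2.30 ± 0.57, adjusted p = 0.00315), acute 72 h (log2FC -1.86 ± 0.50, adjusted p = 0.00985) and chronic 24 h (log2FC -2.07 ± 0.51, adjusted p = 0.00343). Of the genes of sinusoidal endothelium, a cell type known for atypical receptors, 11 were measured. They were lower in 6 cases at acute 24 h, 9 at acute 72 h and 5 at chronic 24 h (all genes, 12.5, 4.33 and 8.11 percent). They summed to 525 to 1012 CPM in healthy, 615 to 645 CPM in acute 24 h and 259.8 to 449 CPM in chronic 24 h libraries, and their part in the result was not tested. Dpp4, the peptidase that inactivates CXCL12 and other chemokines, was at 2.28 to 26.3 CPM in healthy and 0.497 to 1.01 CPM in acute 24 h libraries (log2FC -4.09 ± 0.68, adjusted p = 6.32e-05). Signalling genes best known from leukocytes, such as Rac2 and Fgr, were higher at acute 7 d, by log2 fold changes of 3.28 and 3.74.

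Of 37 genes of the NF-kappaB, interleukin, TNF and interferon pathways that are known to induce chemokines, 8 were higher and 3 lower at acute 24 h (all genes, 9.41 and 12.5 percent). At acute 72 h 5 were higher and 0 lower (all genes, 8.23 and 4.33 percent), and at acute 7 d 9 and 1 (all genes, 9.23 and 5.64 percent). At chronic 24 h 9 were higher and 1 lower (all genes, 11.2 and 8.11 percent), at chronic 72 h 9 and 0 (all genes, 7.88 and 4.2 percent) and at chronic 14 d 8 and 0 (all genes, 4.55 and 1.17 percent). The list's median log2 fold change lay between 0.15 at acute 72 h and 0.52 at chronic 24 h, where all genes had 0 and -0.03. Il17ra, the interleukin 17 receptor, was higher in all 6 comparisons, most at acute 24 h (log2FC 3.08 ± 0.27, adjusted p = 2.62e-08). Tnfaip3, a target and inhibitor of NF-kappaB, was higher from acute 72 h on and most at chronic 24 h (log2FC 3.15 ± 0.37, adjusted p = 7.84e-07), as was Tnf (log2FC 4.87 ± 0.76, adjusted p = 3.43e-05). The interferon factor Irf1 was lower at acute 24 h (log2FC -2.02 ± 0.30, adjusted p = 1.52e-05) and chronic 24 h (log2FC -1.61 ± 0.26, adjusted p = 5.41e-05), the times at which Cxcl10 was lowest.

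The 24 h groups after 8 and after 1 injection differed in both receptors and ligands. Of the 14 tested receptors 10 were higher at chronic 24 h than at acute 24 h, and of the 26 tested ligands 9 were higher and 1, Ccl11, lower. Over all genes 10.9 percent were higher and 3.05 percent lower. The ligands that were higher were Ccl3, Ccl4, Ccl5, Ccl6, Ccl7, Ccl9, Ccl22, Cx3cl1 and Xcl1, while no ELR chemokine and neither CXCR3 ligand was called. Cxcr4, Ccr2, Ccr7, Cx3cr1, Ccl3, Ccl4 and Cx3cl1 were among those that kept their calls in the libraries of higher depth alone, while those of Ccl5, Ccl6, Ccl7, Ccl9, Ccl22, Xcl1, Ccr1, Ccr6, Cxcr3, Cxcr5 and Cxcr6 were lost. Among the calls kept were those of Ccr2 (log2FC 3.88, adjusted p = 0.000715), Ccr7 (log2FC 2.90, adjusted p = 0.000128) and Ccl4 (log2FC 3.41, adjusted p = 0.00158). From chronic 24 h to chronic 14 d 1 receptor (Cxcr6) and 3 ligands (Cxcl5, Cxcl10 and Cxcl12) were higher and 5 ligands (Ccl6, Ccl7, Ccl11, Cxcl2 and Cxcl14) lower. These were 10 and 12.5 percent of the tested members, where 6.65 and 6.11 percent of all genes were called. With so few members that is a small difference.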

How the data were processed

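The authors deposited 1 table of raw read counts per Ensembl gene for 27 RNA libraries of ultraviolet-sorted stellate cells. Per the labels and methods, single-end reads were checked with FastQC, aligned with STAR to GRCm38 and assembled with StringTie, with tool versions, strand setting, annotation release and the step from assembly to counts not given in the sources used here. Reads of overlapping genes on opposite strands may therefore be shared.

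Gene names and exon lengths came from GENCODE M21, in which 53274 of 53379 identifiers were found, and 16198 genes had no count. Cxcl11 matched the symbol rule but is annotated as a polymorphic pseudogene and was left out. Counts were tested in edgeR 4.0.16 (R 4.3.3, limma 3.58.1), with TMM scaling, filterByExpr by group, 1 mean for each of the 7 groups and robust quasi-likelihood tests over all 27 libraries, with Benjamini-Hochberg adjustment over 18758 genes. CPM divided counts by the library total. SE was the absolute log2 fold change divided by the square root of F. Folds against a group without counts are lower bounds against 3 counts per library. In simulated counts for acute 24 h against healthy, run on 18278 genes, 76 percent of 100 genes changed 3-fold and 94 percent of 100 changed 8-fold were called, with 3 of 18078 unchanged genes. The changed genes were drawn only from genes above a minimum mean count. These rates therefore do not cover rare members such as Ccl8, Ccl17, Ccl22, Ccr6 and Xcl1. Alternatives were DESeq2 1.42.0, other scalings, filters and thresholds, a replicate block, depth class, the compared groups alone and single libraries left out.

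Values in every library were given for 22 genes by rule: the called members at both ends of the log2 fold changes of each comparison, 3 at each end, and the 8 members highest per kb. Other genes were given by count and range, and of the lists those called with the largest change and the first 3 markers; further list genes and members outside the rule were named after their values were seen. The counts include 1 tested receptor and a few list genes that are not reported here by name. The members and gene lists were chosen with earlier results of these data known. Promoter sequence came from RefSeq (GRCm38.p6), searched on both strands for ISRE, AP-1 and kappaB motifs.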

Additional observations from a re-analysis of the deposited data

Results flagged for a closer look

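Some single libraries stood apart from their group. In groups of 4, a library was marked when its gap to the nearest other one, divided by the group's whole range, exceeded Dixon's 95 percent critical value. For normally distributed values this happens by chance in about 1 of 20 groups. A group with counts in only 1 library is always marked, so the number marked cannot be set against that rate. Of the 132 groups of 4 looked at over 22 named genes, 11 held such a library. Acute 72 h replicate 2 had 546 CPM of Ccl7 where the other 3 averaged 204 CPM, and 0.44 CPM of Ccl17 and 0.176 CPM of Ccl8 where the others had none. Acute 72 h replicate 1 had 2.06 CPM of Cxcr2 against a mean of 0.532 CPM, and 0.179 CPM each of Ccl22 and Ccr6 against none. Chronic 14 d replicate 3 had 11318 CPM of Cxcl12 against a mean of 7352 CPM, chronic 14 d replicate 1 had 372 CPM of Cxcl1 against 591 CPM, and chronic 14 d replicate 2 had 1.08 CPM of Ccl8 against none. Chronic 72 h replicate 3 had 1.19 CPM of Ccr1 against 5.7 CPM, and healthy replicate 4 had 0 CPM of Ccr1 against 0.26 CPM. All these values of Ccl8, Ccl17, Ccl22, Ccr6 and healthy Ccr1 rest on a few counts.

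The effect of injury at 24 h differed between 8 injections and 1 injection for 20 members, by edgeR's test of chronic 24 h against acute 24 h (adjusted p below 0.05 and above 2-fold). Both effects are measured from the same healthy libraries, so the difference between them is the direct contrast of the 24 h groups. In that contrast 10.9 percent of all genes were higher and 3.05 percent lower. Among receptors the log2 fold change was 4.32 for Ccr2, 4.0 for Cxcr3, 3.83 for Cxcr4, 3.77 for Ccr7, 3.54 for Cx3cr1, 3.1 for Cxcr6 and 2.07 for Ccr1, while Cxcr5 was at least 6.03-fold and Ccr6 at least 1.37-fold higher. Among ligands it was 3.56 for Ccl5, 3.48 for Ccl4, 3.0 for Cx3cl1, 2.87 for Ccl9, 2.82 for Ccl3, 2.45 for Ccl6, 1.34 for Ccl7 and -2.16 for Ccl11. Ccl22 was at least 17.7-fold higher, and Xcl1 had a ratio of 23.6 on 26 counts against 1. In libraries of higher depth alone the differences of Ccl5, Ccl6, Ccl7, Ccl9, Ccl22, Xcl1, Ccr1, Ccr6, Cxcr3, Cxcr5 and Cxcr6 were no longer called, and those of Ccl5, Ccl6, Ccl22 and Cxcr5 were also lost with only the 2 groups fitted. The pan-leukocyte genes were higher in the same contrast in 9 of 10 cases and the macrophage genes in 11 of 12, and their part in the difference was not tested.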

How the results depend on the processing

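Of the 180 member calls, 126 were kept with every single library left out and 105 under every alternative tried, and no call changed sign. Scaling by library size alone, which moved the median of all genes by up to 0.174 on the log2 scale and by over 0.1 in 6 of 10 comparisons, ended none of them, and DESeq2's own test and its size factors each ended 1. Depth class was tried after seeing the data. With the class as a term, 9 members were higher at chronic 14 d than in healthy, 2 at chronic 14 d than at chronic 24 h and 12 at chronic 24 h than at acute 24 h. In libraries of higher depth alone, chronic 24 h had 17 higher and 0 lower than healthy and 8 higher than acute 24 h. In libraries of lower depth alone, 8 were lower at chronic 14 d than at chronic 24 h. Fitting only the groups compared left 4 lower at acute 24 h, 7 higher at acute 72 h and 17 higher at chronic 24 h. Without the filter 6 were lower at acute 24 h. Without the fold minimum 1 was lower at acute 72 h, and at an adjusted p of 0.1 20 were higher at acute 7 d than at acute 72 h. Beyond the alternatives' own construction, the cause was not tested.

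With single libraries left out, the counts against healthy ranged from 9 to 13 higher and 5 to 10 lower at acute 24 h, 9 to 14 higher and 0 to 1 lower at acute 72 h, and 17 to 20 higher and 0 to 1 lower at acute 7 d. They ranged from 22 to 25 higher and 1 to 2 lower at chronic 24 h, 16 to 23 higher at chronic 72 h and 12 to 21 higher at chronic 14 d. Chronic 14 d against chronic 24 h had 2 to 4 higher and 4 to 6 lower, chronic 24 h against acute 24 h 13 to 19 higher and 1 lower, acute 72 h against acute 24 h 10 to 13 higher and 2 to 3 lower, and acute 7 d against acute 72 h 9 to 14 higher and 3 lower.

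Of 78 same-numbered pairs of libraries, 15 correlated above 0.1 in their deviations from the group means (range -0.172 to 0.19, median 0.0135). Differently numbered pairs were not measured beside them, so this cannot decide whether the replicate numbers pair the libraries. Replicates 1 and 2 of chronic 24 h and of chronic 72 h also share the lower depth class. With the replicate block, the counts higher and lower than healthy were 10 and 8 at acute 24 h, 13 and 0 at acute 72 h, 19 and 0 at acute 7 d, 25 and 2 at chronic 24 h, 20 and 0 at chronic 72 h and 18 and 0 at chronic 14 d. They were 4 and 5 for chronic 14 d against chronic 24 h, 20 and 1 for chronic 24 h against acute 24 h, 12 and 3 for acute 72 h against acute 24 h and 17 and 3 for acute 7 d against acute 72 h, and 7 single calls ended. Depth limits the rarest members, whose bounds and ratios rest on a few counts and cover counting error only.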
